A study of Mus musculus with 12 samples.

Results

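Non-collagen matrix glycoproteins and proteoglycans were followed through 48 genes in mouse mesenchymal stem/stromal cells (MSCs) that had or lacked p38α and were treated or not with TGF-β. The genes were listed by name and function. A gene was measured where the array's annotation gave a probeset to its symbol alone, and where several did, the probeset with the highest mean over the 12 arrays was used. This left 42 of the 48 genes, among 17097 genes measured in all. Fbn1, Efemp2, Nid2, Lama4, Sdc1 and Gpc3 had no probeset named for them alone and were not analysed here.

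The MSCs, immortalized before use, came from the bone marrow of mice with floxed Mapk14 alleles (Mapk14 lox/lox) and a tamoxifen-activated Cre. The array labels name FVB/NJ as the background, while the methods of the study describe C57BL/6 mice. All groups carried the floxed alleles and the Cre. The p38α∆ MSCs were obtained by incubating the immortalized cells with 4-hydroxytamoxifen (4-OHT), which deletes a floxed part of Mapk14, the gene of p38α. WT MSCs were the same floxed cells given vehicle, so 4-OHT exposure and loss of p38α cannot be told apart between these groups. TGF-β was added at 5 ng/ml for 20 h in medium with 0.5% serum. There were 3 arrays of TGF-β-treated p38α∆ MSCs (numbered 1, 2 and 4), 3 of TGF-β-treated WT MSCs (1, 3 and 4), 2 of p38α∆ MSCs (1 and 3) and 4 of WT MSCs (1, 3, 4 and 4b). The meaning of an array number, and whether a group's arrays came from separate cultures, is not given in the labels or methods, so each p-value measures the spread between these arrays, which may be technical. Precision is limited throughout by how few arrays there were.

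Matrix glycoproteins and proteoglycans fill the space between cells together with collagens. Fibrillins, fibulins and microfibril-associated proteins organise elastic fibres, laminins, nidogens and perlecan build basement membranes, and matricellular proteins such as tenascin-C and SPARC sit in the matrix but act mainly on how cells attach to it. Proteoglycans carry long sulfated glycosaminoglycan chains on a core protein. Fibroblasts and stromal cells exposed to TGF-β are known for depositing matrix, and the matrix in turn stores latent TGF-β.

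In the series as a whole, the first principal component held 47.5% of the variance and set the 4 arrays numbered 1 (scores 23.1 to 41.0) apart from the other 8 (−31.1 to −2.08), with 1 such array in every group. Mapk14 itself had 6 probesets, and the main one read 9.27 to 9.51 in TGF-β-treated p38α∆ MSCs, 9.06 to 9.32 in TGF-β-treated WT MSCs, 9.01 to 9.03 in p38α∆ MSCs and 8.95 to 9.12 in WT MSCs, on the log2 scale. Their position relative to the deleted exons is not stated, so these values are no check of the labels, and group names follow the labels. Of the marker genes of MSCs, 8 of 10 measured lay above the median level of all genes (5.11), against 0 of 9 endothelial, 0 of 7 leukocyte and 0 of 3 adipocyte markers. Acta2 and Cnn1 were the 2 of 4 smooth muscle markers above it, at 11.77 to 12.19 and 8.89 to 9.83 over the arrays, Krt19 the 1 of 6 epithelial markers, and 4 of 7 osteoblast and chondrocyte markers lay above it as well. The mean level of the MSC markers was 7.94 to 8.01 in TGF-β-treated p38α∆ MSCs, 7.92 to 8.03 in TGF-β-treated WT MSCs, 7.89 to 7.96 in p38α∆ MSCs and 7.87 to 7.95 in WT MSCs. Ccn2, Smad7 and Skil, which TGF-β is known to induce, rose with TGF-β by 4.73, 1.67 and 2.56 on the log2 scale in p38α∆ MSCs and by 3.57, 1.22 and 2.53 in WT MSCs.

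Most of the matrix genes gave strong signals. Of the 42, 33 lay above the median level of all genes, and the highest means over the 12 arrays belonged to Sparc (12.14), an adhesion-modulating matricellular protein, Fn1 (11.97), fibronectin, Bgn (11.58), the small proteoglycan biglycan, Gpc1 (10.59), a lipid-anchored heparan sulfate proteoglycan, and Sdc4 (10.57), a transmembrane one. At the other end were Efemp1 (2.92), an elastic fibre-associated fibulin, Sparcl1 (3.08), a relative of SPARC, Aspn (3.23), asporin, Mfap4 (3.38), a microfibril-associated protein, and Smoc1 (3.76), a SPARC-related matricellular protein. Of all genes, 27.0% had a lower mean than Smoc1 and 4.18% a lower one than Efemp1. Probesets differ in how brightly they respond, so these log2 values rank signals and not amounts of RNA. By role, the median level was 10.19 over the 5 measured cell-surface proteoglycans and versican, 8.36 over the 15 adhesive and matricellular genes, 8.26 over the 5 basement membrane genes, 8.10 over the 7 small leucine-rich proteoglycans and 6.52 over the 10 genes of elastic fibres and microfibrils.

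The response to TGF-β lay in a few of these genes. In TGF-β-treated against untreated p38α∆ MSCs, 6 of 42 rose and 0 fell, while 3.43% of all 17097 genes were called higher and 4.97% lower. Without p38α∆ array 1 or 3, which leaves a single untreated array, 3 and 2 of the 42 were called. In TGF-β-treated against untreated WT MSCs, 5 rose and 1 fell, where 4.02% of all genes were called higher and 5.36% lower. Tgfbi, Tnc, Crispld2, Sdc4 and Fbln2 rose in both, Mfap4 passed in p38α∆ MSCs alone, Fbln1 passed in WT MSCs alone, and 35 passed in neither. The median log2 difference over the 42 was −0.03 in p38α∆ MSCs and −0.01 in WT MSCs, beside −0.00322 and −0.0102 over all genes. The arrays of both responses are separate but share array numbers. Deviations of treated p38α∆ and treated WT array 1 from their group means correlated at 0.845, so the responses may not be independent. Of the 42 genes, 32 had the same sign in both (Pearson r = 0.87 across genes, which are not independent replicates). Neither value was computed over all genes. RNA was taken from whole cultures, so fewer cells of a kind and less RNA in each cell cannot be told apart.

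**Figure D1:**
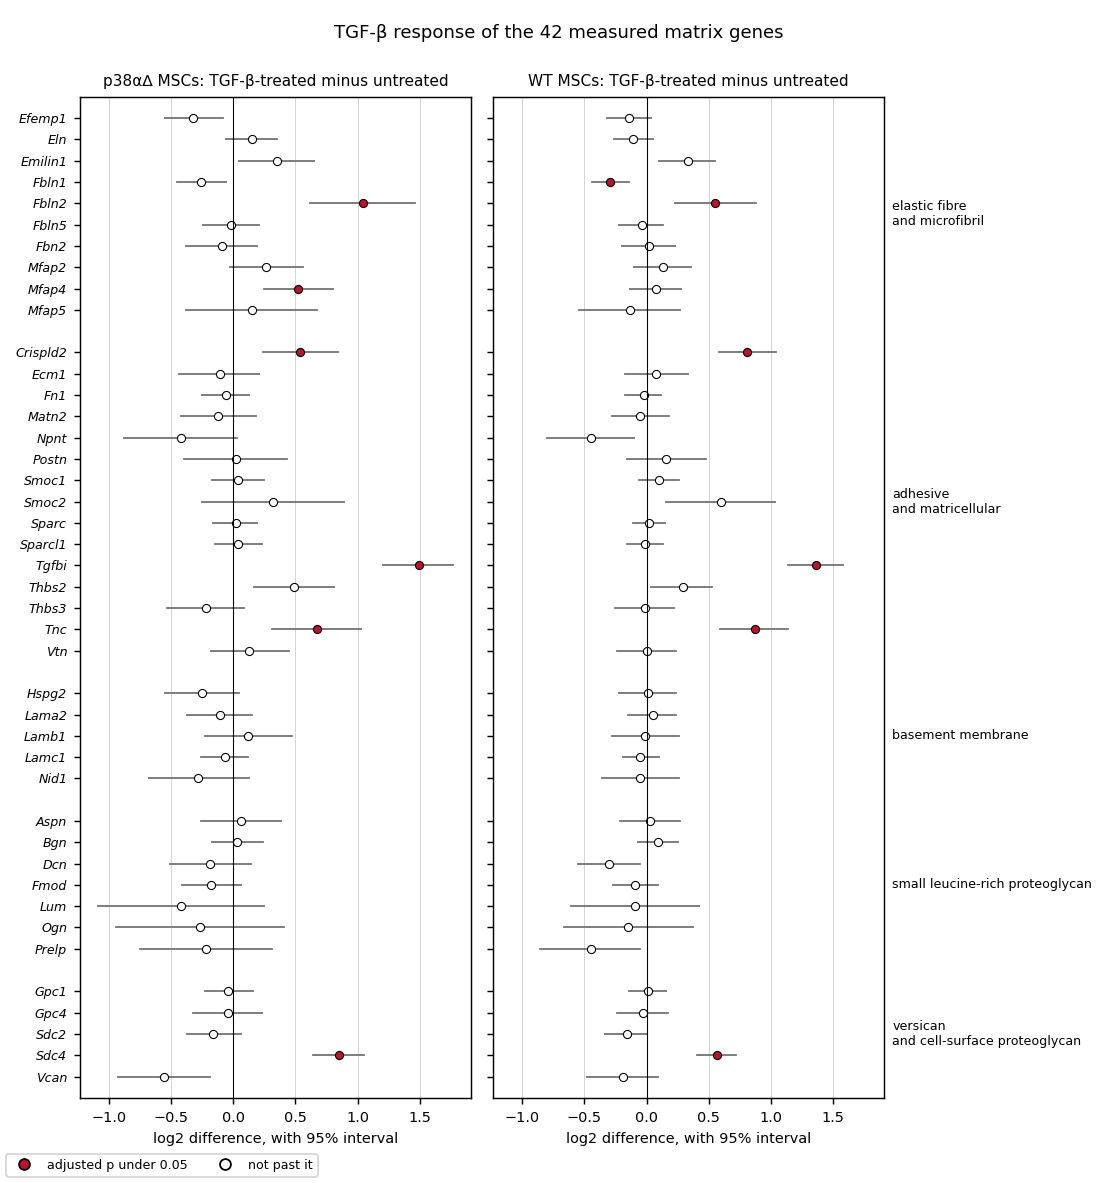
Log2 difference between TGF-β-treated and untreated arrays (horizontal axis) for each of the 42 measured matrix genes (rows, grouped by role), in p38α∆ MSCs on the left and WT MSCs on the right, with 95% intervals from the limma fit that are not adjusted for the number of genes. Filled points passed at an adjusted p under 0.05, 6 on the left and 6 on the right, and most other points lie near 0.

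Tgfbi encodes an adhesive matrix protein that binds collagens and integrins and is named for its induction by TGF-β. Its log2 values were 9.01, 9.47 and 9.25 in TGF-β-treated p38α∆ MSCs, against 7.82 and 7.50 in untreated p38α∆ MSCs. They were 8.79, 8.94 and 9.12 in TGF-β-treated WT MSCs, against 7.59, 7.62, 7.61 and 7.59 in untreated WT MSCs. Every treated array stood above every untreated one, and the 4 WT arrays were nearly alike. The rise was 1.49 (SE 0.13, adjusted p = 3.21e-05, 2.80-fold) in p38α∆ MSCs and 1.36 (SE 0.10, adjusted p = 6.47e-06, 2.57-fold) in WT MSCs. A second Tgfbi probeset gave 1.53 and 1.27.

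Tnc, tenascin-C, is a large anti-adhesive glycoprotein of wounds and tumor stroma. It read 9.51, 10.08 and 10.02 in TGF-β-treated p38α∆ MSCs, against 9.20 and 8.97 in p38α∆ MSCs. Its WT values were 9.50, 9.66 and 9.64 with TGF-β, against 8.94, 8.54, 8.66 and 8.87 without. Treated and untreated arrays did not overlap in either background. Tnc rose by 0.67 (SE 0.17, adjusted p = 0.0277) in p38α∆ MSCs and by 0.87 (SE 0.13, adjusted p = 0.00102) in WT MSCs. In p38α∆ MSCs array number 1, the only number with both conditions, gave a difference of 0.31. Without untreated p38α∆ array 1 or 3, or treated array 2 or 4, the call in p38α∆ MSCs was lost, as it was with the array number as a fixed block.

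Crispld2, a secreted protein of the CAP superfamily, was at 5.59, 5.68 and 5.79 in TGF-β-treated p38α∆ MSCs and at 5.31 and 4.97 in p38α∆ MSCs. In WT MSCs it was at 6.18, 5.82 and 5.82 with TGF-β and at 5.35, 5.07, 5.11 and 4.92 without. The treated arrays were higher throughout, by 0.54 (SE 0.14, adjusted p = 0.0295) in p38α∆ MSCs and by 0.81 (SE 0.10, adjusted p = 0.000386) in WT MSCs. Its dimmer second probeset (mean 3.89) showed wider differences of 1.21 and 1.58. The call in WT MSCs held whichever array was left out, whereas that in p38α∆ MSCs did not hold without either of the untreated p38α∆ arrays, treated array 2 or 4, or WT array 3, nor with the array number as a fixed block or with no block.

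Sdc4, syndecan-4, is a heparan sulfate proteoglycan of focal adhesions and a co-receptor for fibronectin. Its values were 11.07, 10.96 and 10.90 in TGF-β-treated p38α∆ MSCs, against 10.23 and 10.05 in p38α∆ MSCs. With TGF-β the WT arrays read 10.94, 10.75 and 10.83, against 10.25, 10.35, 10.31 and 10.16 without. The groups were apart by several times their spread. Sdc4 rose by 0.85 (SE 0.09, adjusted p = 0.000187) in p38α∆ MSCs and by 0.57 (SE 0.07, adjusted p = 0.00035) in WT MSCs, while the other measured cell-surface proteoglycans Sdc2, Gpc1 and Gpc4 lay between −0.16 and 0.01 in both. Tgfbi and Sdc4 were called in p38α∆ and in WT MSCs under every alternative fit.

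Fbln2, fibulin-2, binds fibronectin, fibrillin and versican. It read 5.63, 5.29 and 5.55 in TGF-β-treated p38α∆ MSCs, against 4.64 and 4.14 in p38α∆ MSCs, a rise of 1.04 (SE 0.19, adjusted p = 0.00523). In TGF-β-treated WT MSCs it read 4.63, 4.76 and 5.16, against 4.05, 4.32, 4.28 and 4.67 in WT MSCs, a rise of 0.55 (SE 0.15, adjusted p = 0.0338). The WT groups overlapped by 1 array, 4b, but within numbers 1, 3 and 4 the treated array was higher by 0.58, 0.44 and 0.68. The WT call was lost without the 4 arrays numbered 1 (0.55, adjusted p = 0.0702) and without any of WT arrays 1, 3 and 4 or treated WT arrays 3 and 4, as well as with no block and over all probesets, and the p38α∆ call was lost without p38α∆ array 3 (highest adjusted p of its alternatives 0.0655).

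Fbln1 and Mfap4 passed in 1 background each. Fbln1, fibulin-1, of elastic fibres and basement membranes, had 9.18, 8.88 and 8.94 in TGF-β-treated WT MSCs, against 9.36, 9.30, 9.30 and 9.17 in WT MSCs, and fell by 0.29 (SE 0.07, adjusted p = 0.0198). In p38α∆ MSCs it had 9.13, 9.09 and 9.03 with TGF-β, against 9.42 and 9.28 without, a difference of −0.26 (SE 0.09, adjusted p = 0.12). The 2 differences are of like size, and only the first passed. Mfap4 had 3.39, 3.73 and 3.68 in TGF-β-treated p38α∆ MSCs, against 3.09 and 3.05 in p38α∆ MSCs, and rose by 0.52 (SE 0.12, adjusted p = 0.0211). In TGF-β-treated WT MSCs it had 3.33, 3.64 and 3.29, against 3.40, 3.30, 3.28 and 3.38 in WT MSCs, a difference of 0.08 (SE 0.09, adjusted p = 0.733). Mfap4 lay near the bottom of the scale, with 16.2% of genes below it. The Fbln1 call was lost in 6 of its 22 alternatives, which were those without WT array 3 or 4, without treated WT array 3 or 4, with no block and with the probeset of highest median absolute deviation, and the Mfap4 call in 5 of 20, which were those without p38α∆ array 1 or 3, without treated p38α∆ array 4, with a fixed block and with no block.

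**Figure D2:**
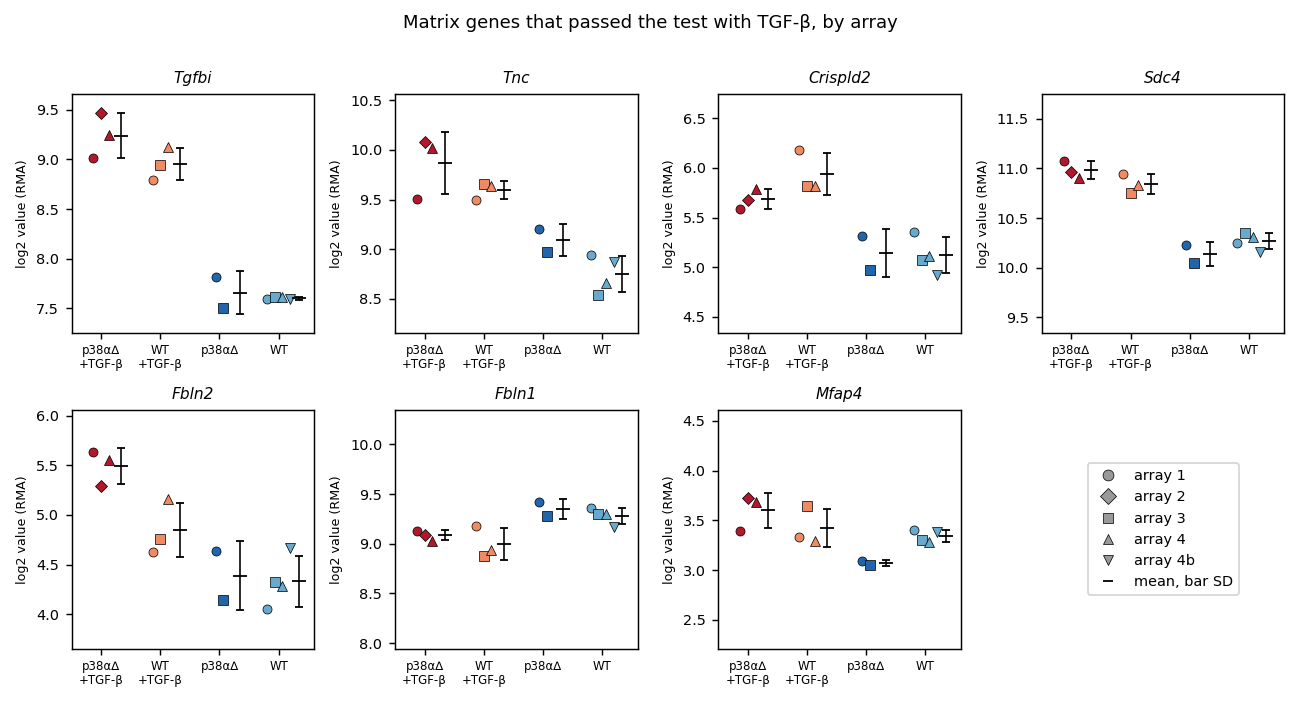
Log2 values (vertical axis, each panel with its own range) of the 7 matrix genes that passed with TGF-β, 1 point per array, with the marker shape giving the array number and the black bar the group mean ± SD. Tgfbi, Tnc, Crispld2 and Sdc4 separate treated from untreated arrays in both backgrounds, whereas Mfap4 does so in p38α∆ MSCs (3.39 to 3.73 against 3.05 to 3.09) and not in WT MSCs.

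The 5 genes that rose in both backgrounds are shown with the 250 bases before their transcription start, as the stretch in which sequence motifs of TGF-β-activated factors can be looked for. The sequences are those of RefSeq on build GRCm38.p6, where 28 of the 42 measured genes had an entry, and each is written 5′ to 3′ on the gene's own strand. Capitals mark the SMAD core motif CAGAC, searched on both strands, where the opposite strand reads GTCTG. Tgfbi lies at chr13:56609336-56609585 (plus strand), Crispld2 at chr8:119992188-119992437 (plus), Tnc at chr4:64046937-64047186 (minus, the downstream one of its 2 starts), Sdc4 at chr2:164443189-164443438 (minus) and Fbln2 at chr6:91212514-91212763 (plus).
Tgfbi: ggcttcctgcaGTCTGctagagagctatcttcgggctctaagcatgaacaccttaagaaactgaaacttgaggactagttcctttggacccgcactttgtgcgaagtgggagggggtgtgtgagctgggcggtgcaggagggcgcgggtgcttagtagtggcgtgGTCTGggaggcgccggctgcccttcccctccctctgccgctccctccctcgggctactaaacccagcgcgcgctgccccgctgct
Crispld2: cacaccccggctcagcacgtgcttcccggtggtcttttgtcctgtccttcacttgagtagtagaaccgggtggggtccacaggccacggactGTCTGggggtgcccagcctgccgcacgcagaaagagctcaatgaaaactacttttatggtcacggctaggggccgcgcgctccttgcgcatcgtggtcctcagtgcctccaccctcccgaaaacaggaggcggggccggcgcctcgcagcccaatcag
Tnc: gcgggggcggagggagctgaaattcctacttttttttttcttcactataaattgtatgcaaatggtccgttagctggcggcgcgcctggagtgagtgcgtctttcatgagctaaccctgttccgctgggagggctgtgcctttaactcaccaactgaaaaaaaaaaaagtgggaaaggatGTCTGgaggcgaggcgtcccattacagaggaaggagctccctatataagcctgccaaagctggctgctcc
Sdc4: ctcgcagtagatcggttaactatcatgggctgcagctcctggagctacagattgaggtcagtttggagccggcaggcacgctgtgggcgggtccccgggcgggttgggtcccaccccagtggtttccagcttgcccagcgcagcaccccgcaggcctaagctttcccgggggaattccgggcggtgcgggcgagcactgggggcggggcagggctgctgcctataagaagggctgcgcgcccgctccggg
Fbln2: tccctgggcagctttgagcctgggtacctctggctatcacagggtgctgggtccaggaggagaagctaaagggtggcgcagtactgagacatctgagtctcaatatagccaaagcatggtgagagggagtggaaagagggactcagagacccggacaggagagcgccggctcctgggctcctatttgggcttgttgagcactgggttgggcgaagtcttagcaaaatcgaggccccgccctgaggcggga

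The motif occurred 2 times before Tgfbi, 239 and 85 bases upstream of the start, once before Crispld2 (158 bases) and once before the downstream start of Tnc (70 bases). It was not found in these windows of Sdc4 and Fbln2 or before the upstream start of Tnc. Of all 32851 promoter stretches of this length, 42.2% held it. The AP-1 motif TGANTCA, whose reverse complement has the same form, was in none of these 6 stretches and in 6.75% of all, so no matches of the 2 motifs overlapped. A match of letters is a description and not a site of binding.

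None of the 3 matrix genes of highest signal passed with TGF-β. Fn1 differed by −0.06 in p38α∆ MSCs (95% interval −0.25 to 0.13, not adjusted for the number of genes) and by −0.02 in WT MSCs (−0.17 to 0.12). Sparc differed by 0.02 in both (−0.16 to 0.19 in p38α∆ and −0.11 to 0.15 in WT MSCs), and Bgn by 0.03 (−0.17 to 0.24) and 0.09 (−0.07 to 0.25). For Fn1, Sparc and Bgn the intervals leave room for a change of about 0.25 at most. None of the 5 measured basement membrane genes (Lama2, Lamb1, Lamc1, Nid1, Hspg2) passed, with differences of −0.28 to 0.12 in p38α∆ MSCs and −0.05 to 0.05 in WT MSCs. None of the 7 small leucine-rich proteoglycans passed either, with differences of −0.42 to 0.06 and −0.45 to 0.09. Dcn, decorin, a collagen-binding member of that family, had −0.30 in WT MSCs (unadjusted p = 0.0235, adjusted p = 0.148). Intervals were widest for Lum, lumican, and Ogn, osteoglycin, both of the same family, and reached 0.67 and 0.68 to each side of the difference in p38α∆ MSCs, so a change of that size was not detectable there. Larger changes could fail too, as the calls were adjusted for all genes.

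Choice of probeset mattered for a few genes. Of the 42, 23 had further probesets, 33 in all. Thbs2, thrombospondin-2, an anti-angiogenic matricellular protein, did not pass at its brightest probeset, with 0.49 (adjusted p = 0.0634) in p38α∆ MSCs and 0.29 (adjusted p = 0.159) in WT MSCs, while its other probeset gave 1.09 (unadjusted p = 0.000131) and 0.85 (unadjusted p = 0.000115). The call was not a matter of probeset alone. At the brightest probeset Thbs2 was called in p38α∆ MSCs without treated p38α∆ array 1 and without WT array 4b. The same held with WT arrays 4 and 4b averaged, over genes with a mean of at least 5, and with an intensity trend and robust variance. Nid1, nidogen-1, which links laminin and collagen IV networks, had −0.28 and −0.05 at the probeset used and −0.30 and −0.37 at the other. Npnt, nephronectin, an integrin ligand, had −0.42 and −0.45 at the probeset used (adjusted p = 0.295 and 0.115), and its 4 others lay between −0.54 and −0.39 in p38α∆ MSCs and between −0.72 and −0.46 in WT MSCs. The unadjusted p of these others was 0.0174 to 0.0417 in p38α∆ MSCs and 0.000227 to 0.00406 in WT MSCs, and that of the other Nid1 probeset was 0.0131 and 0.000642. For Thbs2, Nid1 and Npnt the direction was shared by all probesets, while the size differed, as did the call for Thbs2 and Nid1. The smallest unadjusted p of Npnt in WT MSCs (0.000227) was below that of the other Nid1 probeset (0.000642). The Npnt call may thus depend on the probeset as well. With the probeset of highest median absolute deviation taken for each gene, Thbs2 was called higher in both backgrounds and Nid1 lower in WT MSCs (adjusted p = 0.0126). Smoc2 was called higher in WT MSCs there as well. Its difference in WT MSCs was 0.60 at the probeset used and 0.78 at the other (unadjusted p = 0.00301).

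Whether p38α∆ MSCs differed from WT MSCs in matrix genes was asked with and without TGF-β. With TGF-β, 0 of 42 passed in limma, where the background over all genes was 0.368% called higher and 0.0819% called lower, and 8 of the 42 had an unadjusted p under 0.05, as did 1471 of the 17097. The median difference was −0.01. The 95% intervals, not adjusted for the number of genes, reached 0.26 to each side at the median gene, from 0.15 for Sparc to 0.59 for Ogn. A difference of that size was not detectable at the median gene. Larger ones could fail too, as the calls were adjusted for all genes. Vcan at −0.65 and Fbln2 at 0.64 lay beyond their own half-widths of 0.33 and 0.37 and did not pass.

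**Figure D3:**
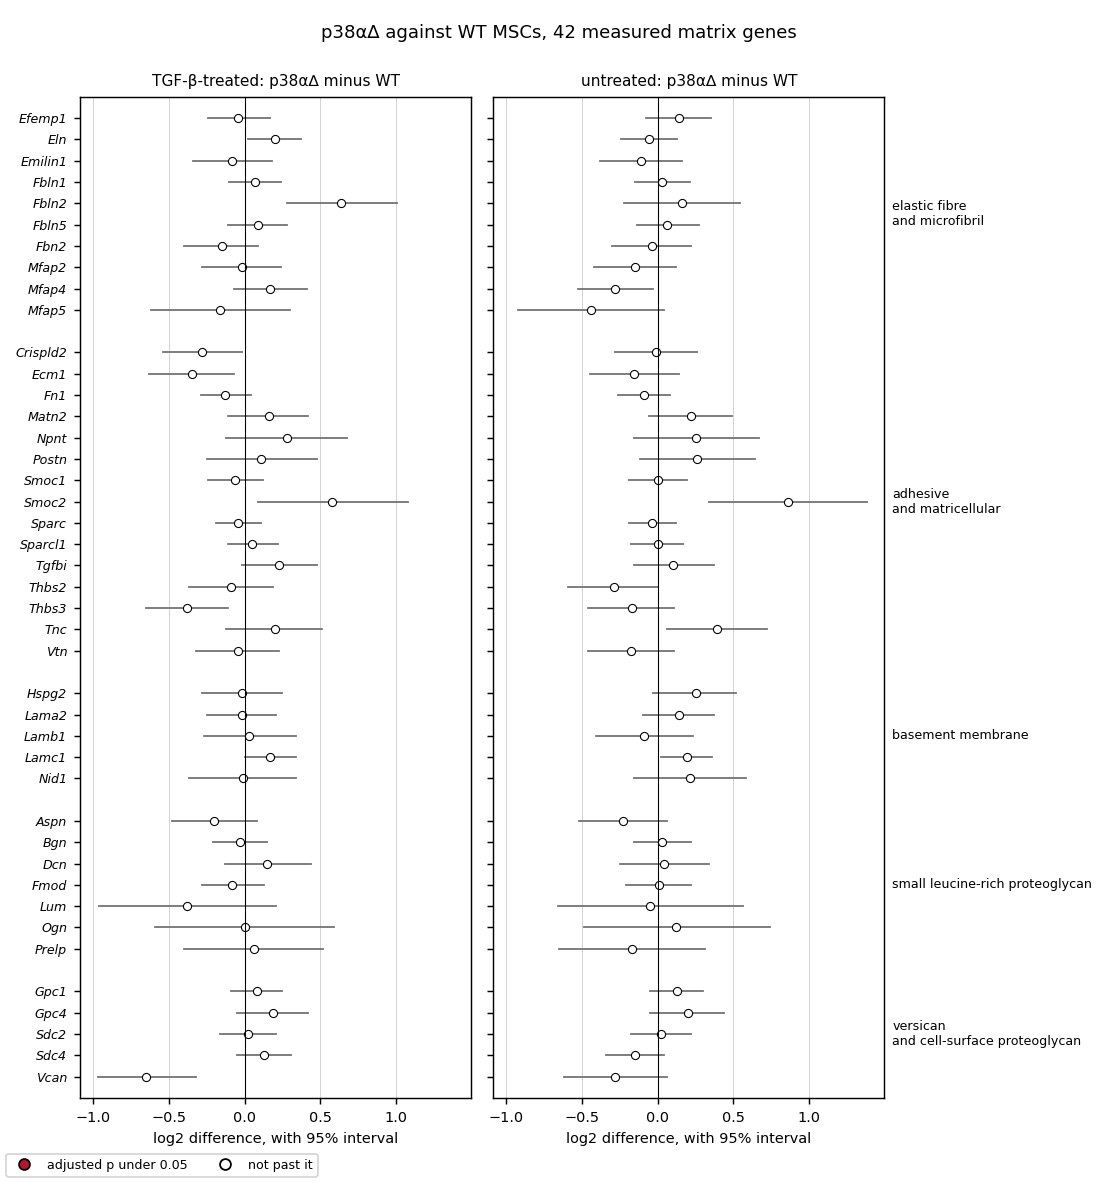
Log2 difference between p38α∆ and WT MSCs (horizontal axis) for each of the 42 measured matrix genes (rows, grouped by role), in TGF-β-treated cells on the left and untreated cells on the right, with 95% intervals not adjusted for the number of genes. No gene passed at an adjusted p under 0.05, and the points farthest from 0 are Vcan (−0.65) and Fbln2 (0.64) on the left and Smoc2 (0.86) on the right.

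Vcan, versican, a large chondroitin sulfate proteoglycan that swells the provisional matrix, had the smallest p. It read 7.17, 7.69 and 7.91 in TGF-β-treated p38α∆ MSCs, against 8.17, 8.57 and 8.15 in TGF-β-treated WT MSCs, a difference of −0.65 (SE 0.15, adjusted p = 0.103). All 3 p38α∆ arrays were below all 3 WT arrays, which is no separate support, as Vcan was picked for its small p. Within number 1 the difference was −1.01, within number 4 it was −0.24, and without the arrays numbered 1 it was −0.53 (adjusted p = 0.335). The 4 other Vcan probesets gave −0.97, −0.49, −0.22 and 0.04, the last 2 of them near the bottom of the scale (means 3.11 and 3.17). Against untreated cells of its own background, Vcan differed by −0.56 with TGF-β in p38α∆ MSCs (adjusted p = 0.0677) and by −0.19 in WT MSCs (adjusted p = 0.474).

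Fbln2, which binds versican, lay the other way, at 5.63, 5.29 and 5.55 in TGF-β-treated p38α∆ MSCs, against 4.63, 4.76 and 5.16 in TGF-β-treated WT MSCs. That difference of 0.64 (SE 0.17, adjusted p = 0.162) held in sign within numbers 1 (0.99) and 4 (0.40). This is no separate support, as Fbln2 too was picked for its small p. Without the arrays numbered 1 the difference was 0.46. Thbs3, thrombospondin-3, a pentameric matricellular protein, had 5.29, 5.69 and 5.36 in TGF-β-treated p38α∆ MSCs, against 5.94, 5.80 and 5.65 in WT MSCs with TGF-β (−0.38, SE 0.12, adjusted p = 0.314), and the groups overlapped. Neither gene passed. Ecm1, a secreted glycoprotein that binds perlecan and fibulin-1, lay between 8.99 and 9.08 on the 3 arrays of TGF-β-treated p38α∆ MSCs, against 9.51, 8.98 and 9.47 in WT MSCs with TGF-β (−0.35, SE 0.13, adjusted p = 0.427). Eln, the elastin precursor, had 4.43, 4.12 and 4.19 in TGF-β-treated p38α∆ MSCs, against 4.17, 4.00 and 4.03 in WT MSCs with TGF-β (0.20, SE 0.08, adjusted p = 0.523). For Ecm1 a single low WT array, number 3, closed the gap.

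Without TGF-β, 0 of 42 passed and 0.0% of all genes were called in either direction by limma, with an unadjusted p under 0.05 for 5 of the 42, and for 492 genes higher and 349 lower in p38α∆ MSCs over all 17097. Only 2 untreated p38α∆ arrays entered this comparison. Smoc2, a SPARC-related protein that promotes growth factor signalling, had the smallest p, with 7.81 and 7.90 in p38α∆ MSCs, against 7.04, 7.09, 6.82 and 7.38 in WT MSCs. Both p38α∆ arrays were above all 4 WT arrays (0.86, SE 0.24, unadjusted p = 0.0035, adjusted p = 0.982), and its other probeset gave 0.86 as well. With TGF-β, Smoc2 read 7.59, 8.73 and 8.56 in p38α∆ MSCs, against 7.22, 7.97 and 7.76 in WT MSCs (0.58, SE 0.23, adjusted p = 0.463), higher by 0.36 within number 1 and by 0.80 within number 4. The other Smoc2 probeset gave a smaller difference with TGF-β, 0.36 (unadjusted p = 0.152).

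The next in order without TGF-β were small. Tnc read 9.20 and 8.97 in p38α∆ MSCs, against 8.94, 8.54, 8.66 and 8.87 in WT MSCs (0.39, SE 0.15, adjusted p = 0.982). Mfap4 read 3.09 and 3.05 in p38α∆ MSCs, against 3.40, 3.30, 3.28 and 3.38 in WT MSCs (−0.28, SE 0.11, adjusted p = 0.982). Lamc1, the laminin γ1 chain found in most laminins, read 9.94 and 9.82 in p38α∆ MSCs, against 9.77, 9.61, 9.58 and 9.69 in WT MSCs (0.19, SE 0.08, adjusted p = 0.982). In each of these genes the p38α∆ arrays lay on 1 side of all WT arrays, and none passed. They and Smoc2 were picked for small p, so this separation is no separate support for a difference. Among all measured matrix genes, the untreated p38α∆ arrays lay above all WT arrays in 5, below in 1 and overlapped in 36. This count was not made over all genes, so whether it is particular to the matrix genes is not known. How often such separation arises by chance was not tested.

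**Figure D4:**
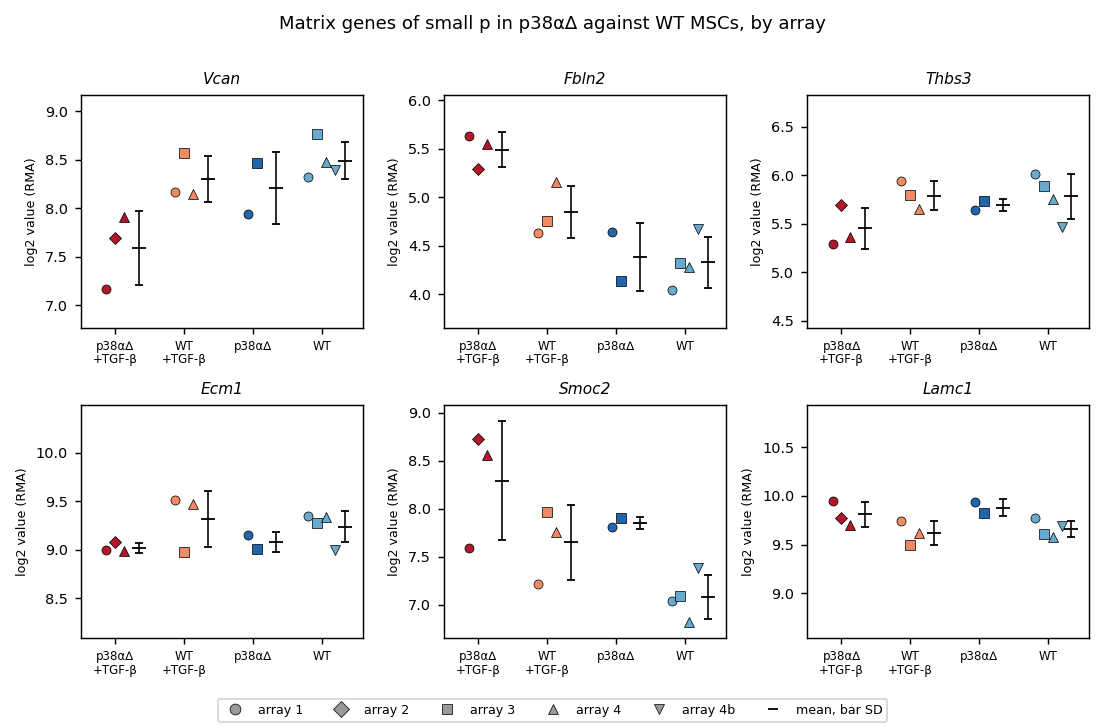
Log2 values (vertical axis, each panel with its own range) of 6 matrix genes of small p in p38α∆ against WT MSCs, 1 point per array, with the marker shape giving the array number and the black bar the group mean ± SD. For Vcan the 3 TGF-β-treated p38α∆ arrays (7.17 to 7.91) lie below all other arrays, and for Smoc2 both untreated p38α∆ arrays (7.81 and 7.90) lie above the 4 untreated WT arrays (6.82 to 7.38).

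The difference of the TGF-β responses, p38α∆ minus WT, was tested directly. In limma 0 of 42 passed, 0.0% of all genes were called in either direction, and 2 of the 42 had an unadjusted p under 0.05, as did 920 of the 17097. These were Mfap4, whose response was larger by 0.45 in p38α∆ MSCs (SE 0.16, unadjusted p = 0.0155, adjusted p = 0.848), and Sdc4, larger by 0.28 (SE 0.12, unadjusted p = 0.0386, adjusted p = 0.9). At the other Sdc4 probeset the difference of the responses was 0.54 (unadjusted p = 0.00709). Eln followed at 0.25 (SE 0.12, adjusted p = 0.916), then Fbln2 at 0.48 (SE 0.25, adjusted p = 0.916). The other Eln probeset gave 0.46 (unadjusted p = 0.0199). For Fbln1, which passed in WT MSCs alone, the responses differed by 0.03 (SE 0.12, adjusted p = 0.985). A difference between the backgrounds was thus not shown for Mfap4 or Fbln1.

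Further matrix genes and the enzymes that build glycosaminoglycan chains were read from 2 lists. Of 73 other matrix glycoproteins and proteoglycans, 64 were measured, of which 3 rose and 2 fell with TGF-β in p38α∆ MSCs (7.81% called, beside 8.4% of all genes) and 3 rose and 4 fell in WT MSCs (10.9%, beside 9.38%), shares near those of all genes. Without the replicate block 0 rose and 2 fell in p38α∆ MSCs, and 0 rose and 0 fell in WT MSCs, so each TGF-β call in WT MSCs named next was lost there. Leaving out p38α∆ array 3 left 0 rises and 1 fall in p38α∆ MSCs, and leaving out p38α∆ array 1 left 1 and 1. Without treated p38α∆ array 1 these were 2 and 1, and without treated array 2 they were 1 and 2. In WT MSCs, 1 rise and 2 falls were left without treated WT array 4, and 1 and 3 without WT array 3. In WT MSCs the rises were those of Tnn, tenascin-W (0.74, adjusted p = 0.0216), Lamb3, a laminin β chain of epithelia (0.60, adjusted p = 0.00642), and Sdc3, syndecan-3 (0.58, adjusted p = 0.0175). The largest falls were those of Lamb2, another laminin β chain (−0.54, adjusted p = 0.00799), Emilin2, an elastic fibre-associated protein (−0.43, adjusted p = 0.00512), and Mgp, matrix Gla protein, an inhibitor of calcification (−0.37, adjusted p = 0.00743). In TGF-β-treated p38α∆ against TGF-β-treated WT MSCs, 1 of the 64 passed, Fbln7, a short fibulin, higher by 0.94 (SE 0.15, adjusted p = 0.0193), and it is named here after its value was seen. Without the arrays numbered 1, 0 of the 64 passed there. The Fbln7 call was also lost with no block and with the array number as a fixed block. It was lost as well without treated WT array 1 or 3, or treated p38α∆ array 1 or 2.

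The enzymes that build the chains include several with clear rises. Of 44 genes of glycosaminoglycan chain synthesis, 39 were measured, and with TGF-β 11 rose and 0 fell in p38α∆ MSCs, while 9 rose and 1 fell in WT MSCs, that is 28.2% and 25.6% of the list called, beside 8.4% and 9.38% of all genes and 14.3% and 14.3% of the 42 core matrix genes. No test compared the lists. Chst11, a sulfotransferase of chondroitin sulfate, rose by 1.54 (adjusted p = 1.38e-05) in p38α∆ MSCs and by 1.45 (adjusted p = 2.37e-06) in WT MSCs. Papss2, which makes the sulfate donor of these reactions, rose by 1.42 (adjusted p = 0.000406) and 1.44 (adjusted p = 4.36e-05). Csgalnact1, which starts chondroitin chains, rose by 1.09 in WT MSCs (adjusted p = 0.000298) and had 0.46 in p38α∆ MSCs (adjusted p = 0.158). The other 6 that rose in WT MSCs, named after their values were seen, were Chsy1, Ugdh, Ust, Ext1, Extl3 and Hs3st3a1, by 0.33 to 0.90, and all 6 also rose in p38α∆ MSCs.

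Sulf2, which removes sulfate groups from heparan sulfate outside the cell, was the 1 that fell in WT MSCs (−0.49, adjusted p = 0.00617), with −0.35 in p38α∆ MSCs (adjusted p = 0.127). Without the 4 arrays numbered 1, 8 of the 39 rose and 1 fell in WT MSCs, while p38α∆ MSCs had a single untreated array left. When p38α was the difference and TGF-β was present in both, 2 of the 39 were higher in p38α∆ than in WT MSCs, Hs6st1 (0.66, adjusted p = 0.0317) and Hs3st3a1 (0.52, adjusted p = 0.0199), both sulfotransferases of heparan sulfate and both named after their values were seen. Neither passed without the arrays numbered 1, where 0 of the 39 were called. Both calls were also lost with no block and with the array number as a fixed block. They were lost as well without treated WT array 1 or 3, or treated p38α∆ array 1.

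**Figure D5:**
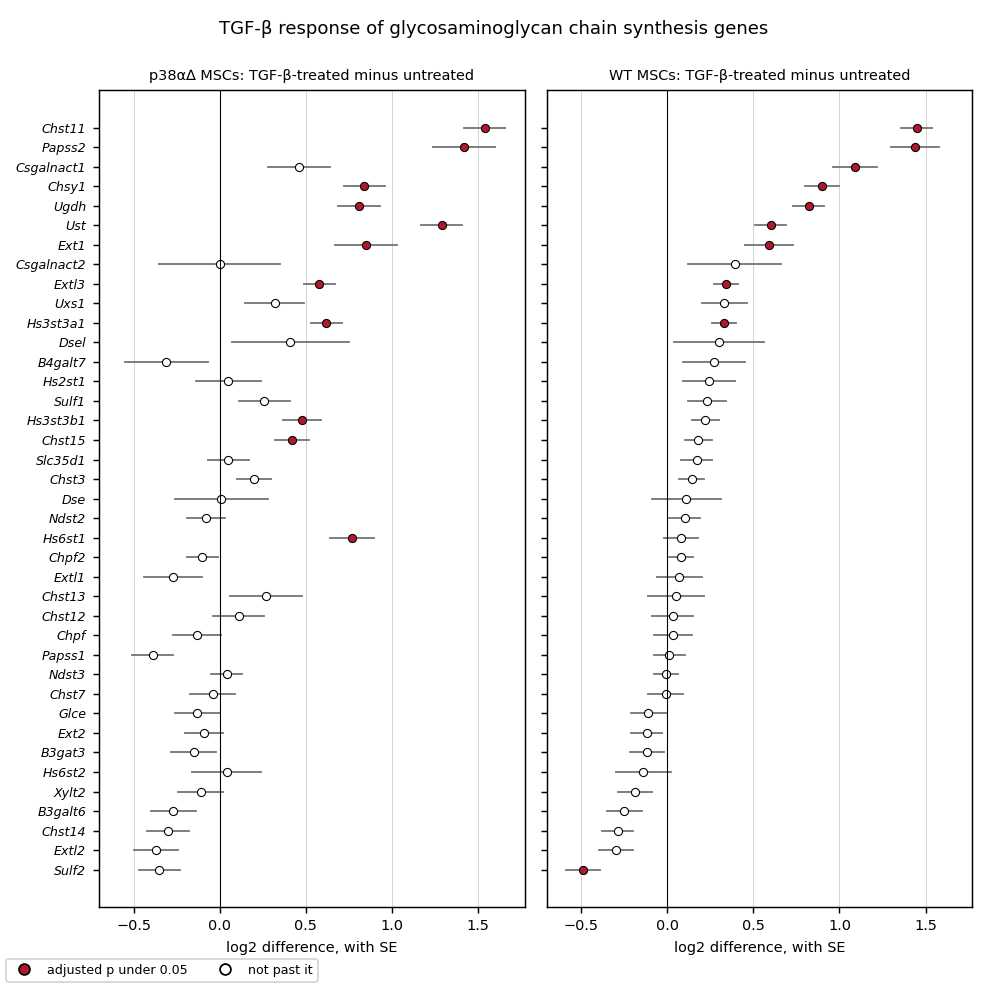
Log2 difference between TGF-β-treated and untreated arrays (horizontal axis, lines give the SE) for each of the 39 measured genes of glycosaminoglycan chain synthesis (rows, in the order of the difference in WT MSCs), in p38α∆ MSCs on the left and WT MSCs on the right. Filled points passed at an adjusted p under 0.05, and Chst11 and Papss2 lie farthest to the right in both.

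Arrays numbered 1 also differed from the others within the matrix genes. In 23 of the 42, array 1 lay on the same side of the mean of the other arrays in all 4 groups, lower in 13 and higher in 10. That count was not made over all genes, so whether it is particular to the matrix genes is not known. Prelp, a leucine-rich proteoglycan that anchors basement membranes, was higher in array 1 by 0.50 in TGF-β-treated p38α∆ MSCs, 0.44 in TGF-β-treated WT MSCs, 0.85 in p38α∆ MSCs and 1.08 in WT MSCs. Mfap5, of microfibrils, was higher by 0.48, 0.37, 1.15 and 0.90 in the same groups. Ogn was lower by 0.80, 0.41, 1.19 and 0.57, and Npnt by 0.42, 0.31, 0.77 and 0.69. These 4 genes were chosen after their values were seen, and what an array number stands for was not tested. With all 4 arrays numbered 1 left out, 6 of the 42 rose with TGF-β and 1 fell in WT MSCs. Tgfbi, Tnc, Crispld2 and Sdc4 stayed called there, Emilin1, an elastic fibre protein, and Smoc2 were added, and Fbln2 was lost. In p38α∆ MSCs this left untreated array 3 alone against treated arrays 2 and 4, so TGF-β and array number cannot be told apart. There the differences were 1.84 for Tgfbi, 1.05 for Tnc, 0.78 for Crispld2, 0.88 for Sdc4 and 1.24 for Fbln2.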

How the data were processed

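The study's authors hybridized amplified RNA of 12 samples to Affymetrix MG-430 PM arrays and normalized them with RMA (packages affy and affyPLM, versions not given in the sources used here). The deposited log2 values, 1 for each of 45101 probesets, were used without further scaling. Probeset names came from the platform annotation given with the series, updated to current mouse symbols by gene ID: 28898 probesets named 1 gene, 551 several and 15652 none.

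All 12 arrays entered 1 limma fit (limma 3.58.1, R 4.3.3) with 4 groups and the array number as a random block (estimated correlation 0.488), because the authors adjusted for scanning batch, which the labels do not give. Without the 4 arrays numbered 1 the estimated correlation was 0.113. A log2 difference is the fitted one, so it can depart slightly from the difference of group means. Two-sided p-values were adjusted for all 17097 genes (Benjamini-Hochberg), with genes called at an adjusted p under 0.05. The fit was tested on simulated data.

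The members, the lists and the rule for naming genes were chosen with earlier results of these data known. Named were the called genes, those of smallest p in each comparison of p38α∆ with WT and in the difference of responses, the 5 highest and 5 lowest levels, and up to 3 rises and 3 falls per further list. Alternatives changed the block, the probeset, the filter, the scaling, the variance model and the arrays included. The promoter that drives the Cre is not reported here.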

Additional observations from a re-analysis of the deposited data

Results flagged for a closer look

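In the group of 4 WT MSC arrays, 1 array stood far from the other 3 for 4 of the 42 matrix genes. Chance marks about 1 in 20 such groups. Efemp1 read 2.89 in WT array 1, against 3.00 in each of the others. Nid1 read 8.43 in WT array 1, against 8.98 to 9.07. Fn1 read 11.93 in WT array 4b, against 12.05 to 12.06, and Thbs2 read 9.55 in the same array, against 9.98 to 10.07. None of the 4 genes passed in any comparison of the reported fit at the probeset used. Without WT array 4b, Thbs2 was called higher with TGF-β in p38α∆ MSCs.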

How the results depend on the processing

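Over all alternatives, 4 to 8 of the 42 matrix genes were called with TGF-β in WT MSCs and 2 to 8 in p38α∆ MSCs, beside 6 and 6 as reported, and 0 in each comparison of p38α∆ with WT and in the difference of responses. With each array left out in turn the range was 2 to 7 in p38α∆ MSCs and 4 to 7 in WT MSCs. Without an untreated p38α∆ array, the lone array left is assumed to vary like the other groups. With the replicate block as a fixed term 3 genes were called in p38α∆ MSCs and 6 in WT MSCs, and without the block 4 and 4. The numbers were not shown to pair the arrays. Deviations from group means correlated at 0.645 to 0.845 for arrays numbered 1 and 3, and at 0.0236 to 0.338 for those numbered 4. Some arrays of different numbers correlated as highly, such as treated p38α∆ array 2 with treated WT array 3 (0.753). Untreated p38α∆ arrays 1 and 3 mirror each other by this centring (correlation −1). In the other groups an array 1 set apart likewise shifts the rest the other way. These correlations thus cannot decide whether the numbers pair arrays. The genes lost under the fixed term in p38α∆ MSCs were Tnc, Crispld2 and Mfap4. Of 1389 values under alternatives for the 13 matrix genes given with full statistics, no called one changed sign, 32 lost a call and 5 (Smoc2 and Vcan) gained one. Of the other matrix genes, Emilin1, Thbs2, Nid1 and Efemp1 gained a call under at least 1 alternative, and Lamb1 only where a single untreated p38α∆ array was left. Counts over all genes moved more. With TGF-β they were 1436 in p38α∆ and 1604 in WT MSCs, 624 and 602 without the block, and 2348 and 2703 over all probesets. For p38α∆ against WT with TGF-β the count was 77, with 14 without the block, 14 with the fixed term, 29 without the arrays numbered 1, 7 to 113 with 1 array left out and 147 with only the groups compared. Without TGF-β the count was 0, with 2 without WT array 4b. The difference of responses had 0, with 1 without TGF-β-treated p38α∆ array 1 and 3 over all probesets. A fit of p38α∆ arrays alone could not be made, because its correlation was not estimable. Signal near the bottom of the scale limits Mfap4, Efemp1, Sparcl1, Aspn and Smoc1.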
